A study of Mus musculus with 2 samples.

Results

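The heat shock chaperones described here are 10 genes chosen by symbol from the 31253 genes of the deposited count tables. They comprise 7 genes known to be induced by stress, Hspa1a, Hspa1b, Hspb1, Hsph1, Dnajb1, Bag3 and Hsp90aa1. The other 3, Hsp90ab1, Hspa8 and Hspe1, are made in unstressed cells and are grouped here as constitutive. This grouping does not mean that stress leaves them unchanged. All 10 were measured by droplet-based single-cell RNA sequencing, which counts molecules near the 3′ end of each transcript as unique molecular identifiers (UMIs). The cells were live CD45+ leukocytes sorted from B16 tumors, a mouse melanoma line. The shSdc1 library came from tumors of B16 cells that carried an Sdc1 hairpin, meant to lower syndecan-1, a surface proteoglycan, and the shRFP library from tumors of B16 cells with a control hairpin. All hosts were wild-type mice that had been vaccinated under the skin of the left flank with irradiated GM-CSF-producing B16 cells. The tumor cells followed 12 days later in the right flank, and the tumors were taken 16 days after that. Tumors were minced and digested with enzymes before the sort, and 6 tumors per group were pooled into 1 library. The genotype label of the shSdc1 sample names a knockout while its title names a hairpin, and the ages of the mice are not given. Each group thus has 1 library, no difference below was tested, and tumor group, pool and library cannot be told apart.

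Heat shock proteins are molecular chaperones that bind unfolded proteins and help them to fold or to be degraded. Cells raise the inducible ones within minutes to hours of heat, hypoxia or other protein-damaging stress, mainly through heat shock factor 1, which binds arrays of the short unit GAA and its inverted form TTC in their promoters. In tissue leukocytes these transcripts are known both from stress in the tumor and from the handling of cells during digestion and sorting.

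Promoters of 4 members are shown. The members that differed most between the libraries over all kept cells, Hspa1a, Hspa1b and Hspb1, can thus be set beside Hspe1, which is grouped here as constitutive. The RefSeq promoter windows (GRCm38.p6, 250 bases before to 50 after each gene start) held 7 of the 10 members, namely Hspa1a, Hspa1b, Hspb1, Hsph1, Dnajb1, Bag3 and Hspe1. A search for paired units, GAANNTTC and TTCNNGAA, each of which reads the same on both strands, found at least 1 match in 5 of the 6 inducible members with a window and in Hspe1. Of 32851 windows of the same length, 15.1% held a match (GAANNTTC in 7.86%, TTCNNGAA in 8.52%, which may overlap). Arrays of 3 alternating units with 2 free bases between neighbours were found in Hsph1 and Hspe1, against 0.603% of all windows. Below are the 160 bases before the gene start, 5′ to 3′ on the gene's strand, with the paired units in capitals, at chr17:34972157-34972316 (minus strand) for Hspa1a, chr17:34959239-34959398 (minus strand) for Hspa1b, chr5:135887759-135887918 (plus strand) for Hspb1 and chr1:55087988-55088147 (plus strand) for Hspe1.
Hspa1a: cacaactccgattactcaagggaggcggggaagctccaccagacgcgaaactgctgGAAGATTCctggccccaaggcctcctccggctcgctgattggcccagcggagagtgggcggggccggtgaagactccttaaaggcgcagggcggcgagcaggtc
Hspa1b: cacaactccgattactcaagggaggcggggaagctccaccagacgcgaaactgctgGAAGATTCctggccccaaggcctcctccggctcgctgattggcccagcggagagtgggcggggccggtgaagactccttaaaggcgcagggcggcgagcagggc
Hspb1: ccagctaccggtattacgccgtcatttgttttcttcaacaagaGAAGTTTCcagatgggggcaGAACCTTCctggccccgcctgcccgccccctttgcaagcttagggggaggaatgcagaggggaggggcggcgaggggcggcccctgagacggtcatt
Hspe1: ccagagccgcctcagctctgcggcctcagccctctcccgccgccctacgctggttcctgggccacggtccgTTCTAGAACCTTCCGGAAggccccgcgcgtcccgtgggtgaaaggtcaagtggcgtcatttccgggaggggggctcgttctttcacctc
The neighbouring genes Hspa1a and Hspa1b differed at 1 of these 160 bases, and each held a single match that began 104 bases before the gene start. Hspb1 held matches 117 and 97 bases before its start, and the 3 overlapping matches of Hspe1 began 89, 84 and 79 bases before its start. The array of 3 units in Hsph1 began 36 bases after the gene start in 1 of its 2 windows and 15 bases after it in the other. The window of Bag3 held its match 42 bases after the gene start, and the 2 windows of Dnajb1 held none. A match is a description of the letters and says nothing of whether the factor was bound in these cells.

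The count tables held 5902 barcodes in shSdc1 and 5786 in shRFP, of which 5576 and 5225 had at least 200 genes and under 10% mitochondrial UMIs. The kept cells held 4281577 UMIs in shSdc1 and 4116399 in shRFP, with a median of 601 and 662 UMIs per cell, and 17 barcode sequences occurred in both. The cells fell into 17 clusters, built without the chaperones and other stress genes. Of these, 16 could be named from marker genes, with monocyte/macrophage-like (2398 cells in shSdc1 and 2922 in shRFP) and T-like (1838 and 1121) as the largest classes. Ptprc, which encodes CD45, stood at 579 CPM (UMIs per 1000000 UMIs) in shSdc1 and 457 CPM in shRFP. Transcripts of 6 melanoma genes summed to 73.8 and 42.3 CPM, and Sdc1 had 85 and 103 UMIs over the kept cells. Host leukocytes did not carry the hairpin, and whether the Sdc1 UMIs came from them or from tumor cells was not tested. The part of melanoma and Sdc1 transcripts in the results below was not tested. Over the 9298 genes with at least 50 UMIs the median log2 ratio, shSdc1 over shRFP, was 0.13 when libraries were scaled to total UMIs. Scaling by trimmed means moved log2 ratios by -0.15 and scaling by the median of ratios by -0.14.

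Inducible chaperone transcripts were lower in leukocytes of shSdc1 tumors than in leukocytes of shRFP tumors, at 0.486 of their level, and the constitutive ones were lower by a smaller ratio. The 7 inducible members summed to 2036 CPM (95% Poisson interval 1994 to 2079) in shSdc1 and 4186 CPM (4124 to 4249) in shRFP. The interval of this ratio was 0.474 to 0.499. The 3 constitutive members summed to 4148 CPM (4087 to 4209) in shSdc1 and 5128 CPM (5059 to 5198) in shRFP, a ratio of 0.809 (0.793 to 0.825). Set against each other within a library, there were 49.1 inducible UMIs per 100 constitutive UMIs in shSdc1 and 81.6 in shRFP. Intervals here and below are at 95% and cover counting error only, not the variation between mice or libraries. Those of CPM and ratios also treat UMIs of the same cell as independent. They are therefore too narrow where few cells hold many of the UMIs.

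**Figure D1:**
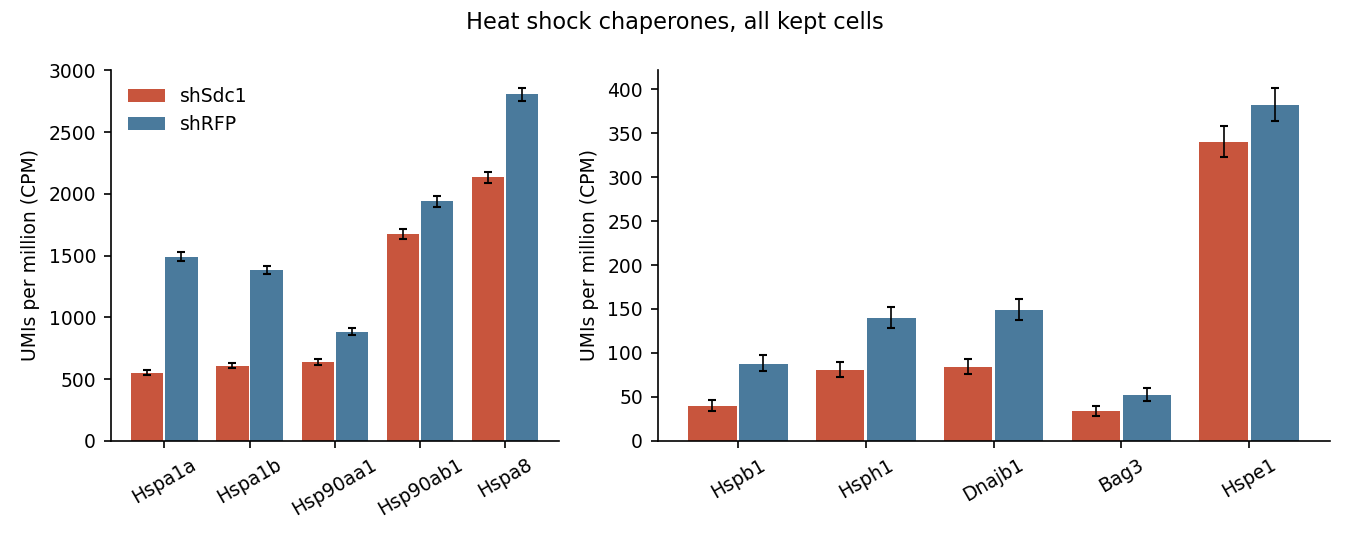
Level of each chaperone gene in the summed UMIs of all kept cells, in CPM on linear axes, with genes of high level on the left and of low level on the right. Bars are single libraries, shSdc1 left of shRFP, and error bars are 95% Poisson intervals. All 10 genes were lower in shSdc1, with ratios between 0.370 for Hspa1a and 0.891 for Hspe1.

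Taking a ratio of at least 1.5-fold as the mark, 6 of the 10 members were lower in shSdc1 and 0 were higher, against 4.72% of all measured genes lower and 12.5% higher. These were 6 of the 7 inducible and 0 of the 3 constitutive members. The median log2 ratio was -0.83 over the inducible and -0.21 over the constitutive members. Bag3 (ratio 0.648) lay just inside the mark and Hsp90aa1 (0.721) just outside it.

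Hspa1a and Hspa1b encode the stress-inducible HSP70 proteins, which hold unfolded chains in an ATP-driven cycle. Hspa1a had 2361 UMIs (551 CPM) in shSdc1 and 6138 UMIs (1491 CPM) in shRFP, and its ratio of 0.370 (0.353 to 0.388) was the lowest of the 10. Hspa1b had 2610 UMIs (610 CPM) and 5693 UMIs (1383 CPM), a ratio of 0.441 (0.421 to 0.462). The constitutive HSP70, Hspa8, also known as HSC70, had 9134 UMIs (2133 CPM) in shSdc1 and 11556 UMIs (2807 CPM) in shRFP, a ratio of 0.760 (0.739 to 0.781). So all 3 cytosolic HSP70 genes were lower in shSdc1, and the intervals of the inducible pair lay below that of Hspa8. In the GENCODE M21 annotation 58.8% of the 50-base stretches of the Hspa1a transcript also occur in Hspa1b. None of the stretches in the last 500 bases of either transcript occur in another annotated gene, so reads from there tell the genes apart. Reads from further inside the transcripts may have been split between Hspa1a and Hspa1b, and for such reads their sum is safer than either. Of the stretches in the last 500 bases, 81.8% for Hspa8, 53.2% for Hspe1, 16.0% for Hspb1 and 7.76% for Hsp90ab1 also occur in other annotated genes. Nearly all of these other genes are pseudogenes, and none is among the genes of the deposited count tables. The sources used here do not say how such reads were counted.

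The 3 inducible partners of HSP70 among the members were lower as well. Dnajb1, the HSP40 protein that delivers substrates to HSP70 and stimulates its ATPase, had 360 UMIs (84.1 CPM) in shSdc1 and 614 UMIs (149 CPM) in shRFP, a ratio of 0.564 (0.494 to 0.643). Hsph1, the HSP110 protein that acts as a nucleotide exchange factor of HSP70, had 344 UMIs (80.3 CPM) and 576 UMIs (140 CPM), a ratio of 0.574 (0.501 to 0.657). Bag3, which links HSP70 to small heat shock proteins and to selective autophagy, had 145 UMIs (33.9 CPM) and 215 UMIs (52.2 CPM), a ratio of 0.648 (0.522 to 0.804). Hspb1, the small heat shock protein HSP27 in human and HSP25 in mouse, keeps damaged proteins from aggregating. It had 170 UMIs (39.7 CPM) in shSdc1 and 361 UMIs (87.7 CPM) in shRFP, a ratio of 0.453 (0.375 to 0.545).

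The HSP90 pair showed a smaller gap between the libraries. Hsp90aa1, the inducible HSP90 isoform that matures kinases and receptors, had 2728 UMIs (637 CPM) in shSdc1 and 3636 UMIs (883 CPM) in shRFP, a ratio of 0.721 (0.686 to 0.758). Its constitutive counterpart Hsp90ab1 had 7168 UMIs (1674 CPM) and 7980 UMIs (1939 CPM), a ratio of 0.864 (0.836 to 0.892). Hspe1, the small mitochondrial chaperonin HSP10, had 1458 UMIs (341 CPM) in shSdc1 and 1574 UMIs (382 CPM) in shRFP. Its ratio of 0.891 (0.829 to 0.957) was the nearest to 1. With the libraries scaled by trimmed means, Hsp90aa1 reached 0.652 and passed the 1.5-fold mark.

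The difference was also present in the number of cells with inducible transcripts once each cell was thinned to 300 UMIs, which left 5029 cells in shSdc1 and 4822 in shRFP and set aside 547 and 403 shallower ones. At least 1 inducible UMI was found in 34.5% (33.2 to 35.9) of shSdc1 cells and 43.9% (42.5 to 45.3) of shRFP cells. Cells with 3 or more made up 5.69% (5.06 to 6.36) in shSdc1 and 15.7% (14.7 to 16.8) in shRFP. Cells with 10 or more made up 0.418% (0.259 to 0.638) and 2.51% (2.09 to 2.99). Unthinned, 52.4% of shSdc1 cells and 62.1% of shRFP cells had an inducible UMI, and any constitutive UMI was found in 62.7% and 70.4% of thinned cells.

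**Figure D2:**
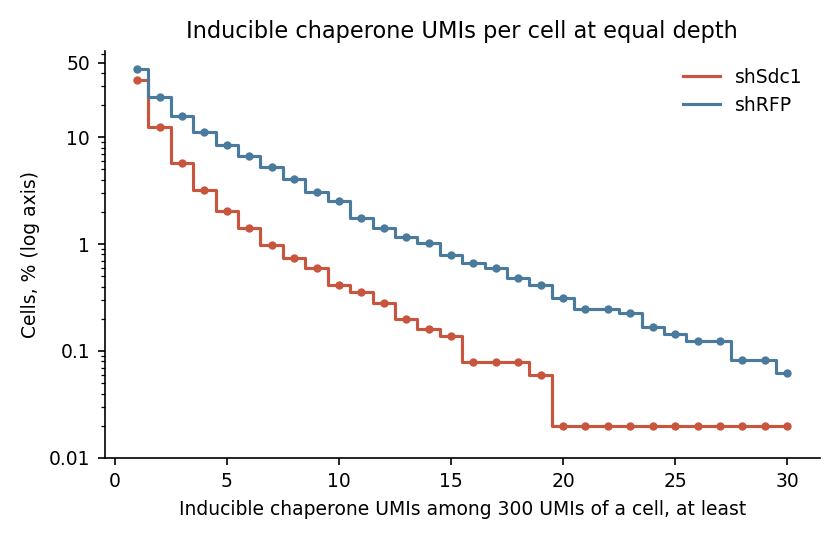
Share of cells, in percent on a log axis, with at least the given number of inducible chaperone UMIs among 300 UMIs drawn from each cell, up to 30. The shSdc1 curve lies below the shRFP curve throughout, at 5.69% against 15.7% for 3 or more UMIs and 0.418% against 2.51% for 10 or more.

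Over all kept cells, inducible members tended to be found in the same cells. Among thinned cells with an Hspa1a UMI, 36.5% in shSdc1 and 54.5% in shRFP also had an Hspa1b UMI, against 9.23% and 10.3% of cells without one. Cells with a UMI of Hspa1a or Hspa1b held an Hsp90aa1 UMI in 21.7% of cases in shSdc1, against 14.0% of the other shSdc1 cells, and in 30.8% in shRFP, against 15.2% of the other shRFP cells. Hsph1 was found in 4.90% and 7.68% of the cells with Hspa1a or Hspa1b, against 1.76% and 2.04% of the others. Constitutive members shared this in part. Hspa8 was found in 46.2% and 57.6% of the cells with Hspa1a or Hspa1b, against 40.1% and 46.0% of the others, Hspe1 in 8.81% and 13.3% against 8.73% and 7.70%, and Hsp90ab1 in 35.2% and 43.2% against 33.8% and 37.1%. The 10% of cells with most inducible UMIs held 54.1% of them in shSdc1 and 57.0% in shRFP, and the largest number in 1 cell was 69 and 104. Hspb1 was the most concentrated member, with 96.5% of its UMIs in shSdc1 and 79.2% in shRFP in the 1% of cells that held most of it. Within T-like cells, Hspb1 aside, 33.02% in shSdc1 and 55.05% in shRFP of those with Hspa1a had Hspa1b, against 8.95% and 10.01% of the others. Bag3 had no such excess in shRFP T-like cells, at 0.535% with Hspa1a or Hspa1b and 0.571% without. Dnajb1 in shSdc1 monocyte/macrophage-like cells stood at 1.99% and 1.45%, with intervals that met.

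In monocyte/macrophage-like cells the inducible members summed to 2069 CPM in shSdc1 and 4288 CPM in shRFP, a ratio of 0.482 (0.4653 to 0.5002). The constitutive sum was 3713 CPM in shSdc1 and 4821 CPM in shRFP, a ratio of 0.770 (0.748 to 0.793). Here 6 of the 10 members were lower by 1.5-fold and 0 higher, against 7.25% and 10.7% of the genes measured in these cells. Hspa1a stood at 646 and 1574 CPM (ratio 0.411), Hspa1b at 618 and 1386 CPM (0.446) and Hspb1 at 48.1 and 108 CPM (0.446). Hsph1 (0.418) and Dnajb1 (0.445) had lower ratios in this class than over all cells, Hsp90aa1 lay at the mark with 0.666, and Bag3 (0.721) lay outside it. The libraries filled this class from different clusters. The Ccl8, Ms4a7 and Stab1 cluster gave 1252 cells in shSdc1 and 536 in shRFP, and the Il1a, Inhba and Ptgs2 cluster gave 232 and 911.

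In T-like cells the inducible ratio was nearer to 1. All 8 measured members had a ratio below 1, but only Hspa1a, Hspa1b and Dnajb1 were past the 1.5-fold mark, and Hspa8 stood at 0.921 (0.863 to 0.982). The inducible members summed to 1708 CPM in shSdc1 and 2656 CPM in shRFP, a ratio of 0.643 (0.602 to 0.687), and the constitutive ones to 4663 and 5115 CPM, a ratio of 0.912 (0.873 to 0.953). Of the 8 members with at least 50 UMIs, 3 were lower by 1.5-fold and 0 higher, against 3.68% and 7.80% of genes. These were Hspa1a with 253 CPM in shSdc1 and 650 CPM in shRFP (ratio 0.388), Hspa1b with 440 and 815 CPM (0.540) and Dnajb1 with 115 and 219 CPM (0.525). Hsph1 (0.894, 0.688 to 1.17) and Hsp90aa1 (0.928, 0.830 to 1.04) had intervals that included 1, and Hspe1 (0.741, 0.634 to 0.867) was the lowest of the constitutive members. Hspb1 had 6 UMIs in shSdc1 and 3 in shRFP in these cells, and Bag3 had 27 and 13. The interval of Hsph1 in T-like cells did not meet that in monocyte/macrophage-like cells (0.333 to 0.519), although this difference between classes was not tested.

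**Figure D3:**
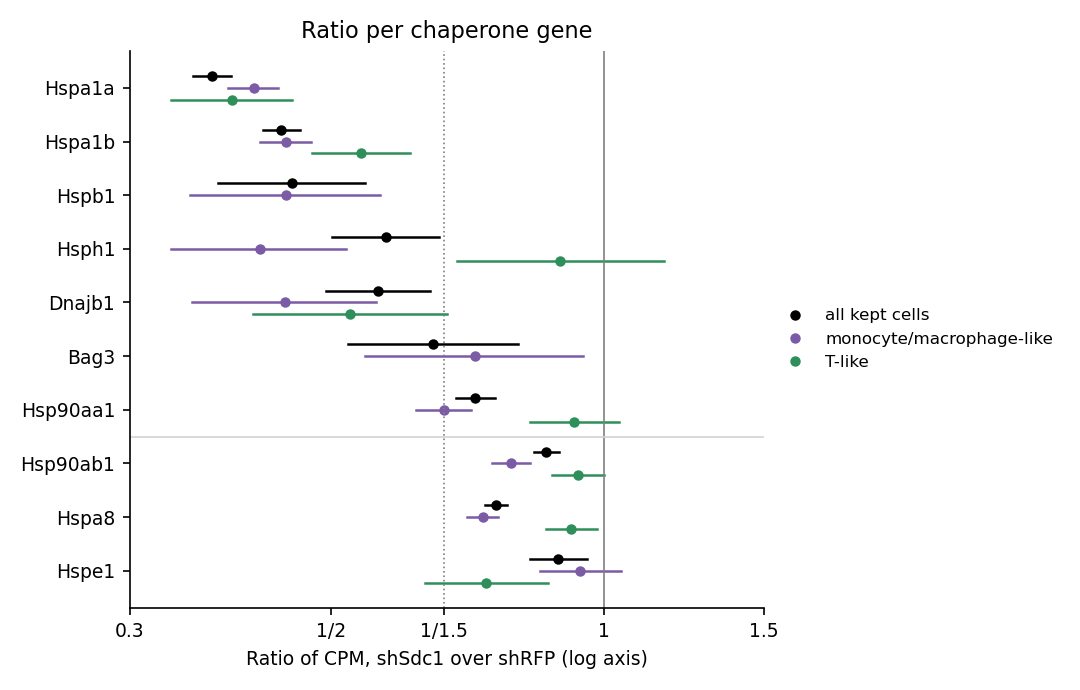
Ratio of CPM, shSdc1 over shRFP, for each chaperone gene on a log axis, in all kept cells, monocyte/macrophage-like cells and T-like cells, with 95% intervals as lines. The grey line separates inducible genes above from constitutive genes below, the dotted line marks 1/1.5, and Hspb1 and Bag3 have no point for T-like cells, where they had under 50 UMIs. Hspa1a lay at 0.370, 0.411 and 0.388 in the 3 populations, while Hsph1 lay at 0.574, 0.418 and 0.894.

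Across all 17 clusters the inducible sum was lower in shSdc1, with ratios between 0.259 and 0.832 and a median of 0.521, and 13 clusters were past 1.5-fold. The interval lay below 1 in each of the 17. The constitutive sum was also lower in 17 clusters, with ratios between 0.349 and 0.939 and a median of 0.804, and 2 clusters were past 1.5-fold. Hspa1a was lower in all 15 clusters with at least 50 of its UMIs, and Hspa1b in all 15 with 50 of its own. The other inducible members were less uniform. Hsp90aa1 had a ratio below 1 in 14 of 15 measured clusters and Dnajb1 in 10 of 11. Hsph1 was lower in 6 of 7 and Hspb1 in 4 of 5. The intervals of these 4 genes lay below 1 in 9, 5, 6 and 2 clusters, in the same order, and above 1 in 0. Hspe1 had a ratio below 1 in 11 and above 1 in 4 of its 15 measured clusters, with the interval below 1 in 4 and above 1 in 0. Bag3 had a ratio below 1 in 1 and above 1 in 2 of 3, with the interval below 1 in 1 and above 1 in 0.

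**Figure D4:**
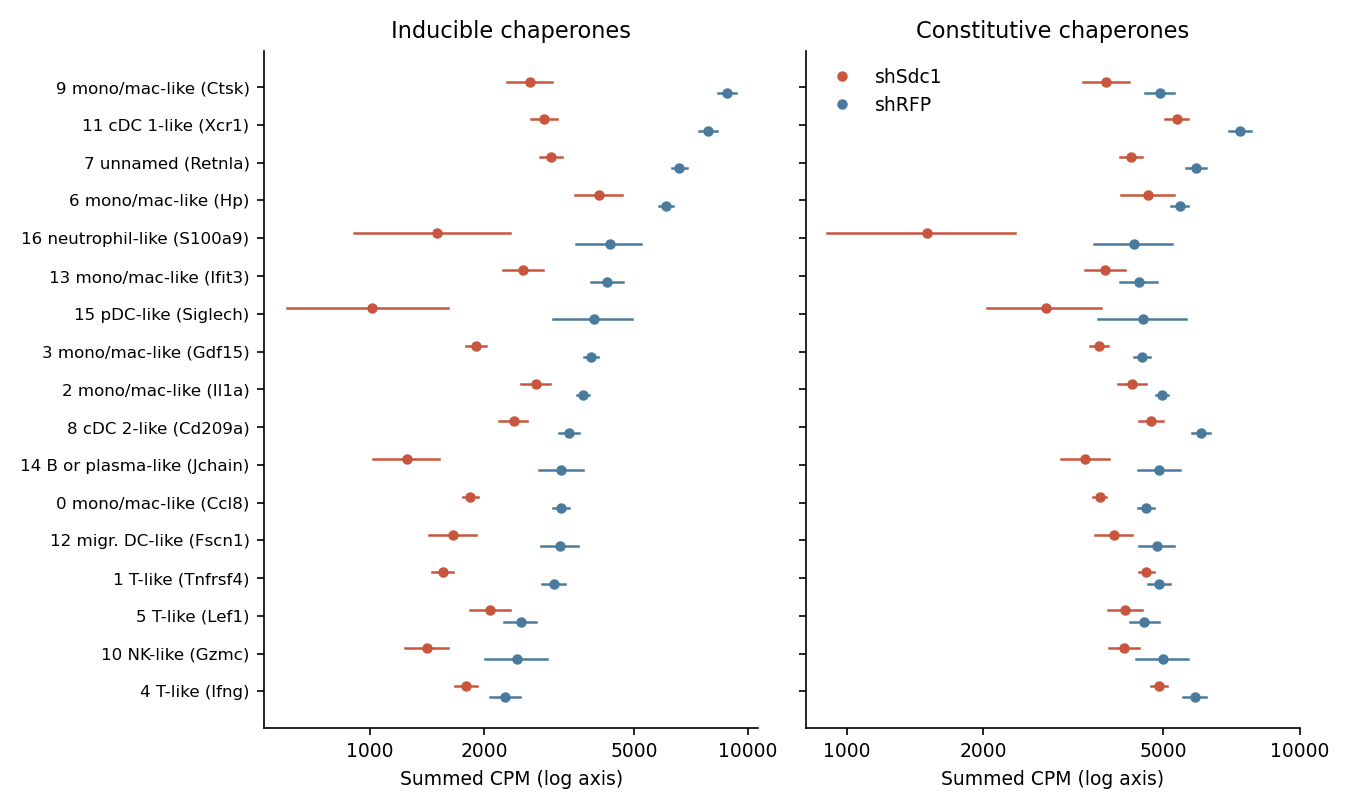
Summed CPM of the inducible (left) and constitutive (right) chaperones in each of the 17 clusters on log axes, with 95% Poisson intervals, shSdc1 above shRFP within a cluster. Clusters are ordered by the inducible level in shRFP and named by number, class and leading gene. The inducible level of cluster 9 was 2647 CPM in shSdc1 and 8791 CPM in shRFP, while its constitutive level was 3744 and 4909 CPM.

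Among clusters with at least 100 cells in both libraries, the widest gap was in cluster 9, monocyte/macrophage-like cells led by Ctsk, Mmp9 and Mmp12 (138 cells in shSdc1 and 253 in shRFP). There Hspa1a stood at 542 and 3154 CPM, a ratio of 0.172 (0.123 to 0.235), and Hspa1b at 769 and 3264 CPM (0.236), while Hspb1 stood at 265 and 286 CPM (0.925, 0.523 to 1.59). The leading genes of this cluster include the hypoxia genes Egln3, Ero1l and Vegfa. Inducible UMIs per 100 constitutive ones were 70.7 in shSdc1 and 179 in shRFP, the highest shRFP value of the 17 clusters. Cluster 7, which could not be named and is led by Retnla, Lyz1 and Ear2, was the other one with a high Hspb1 level. Hspb1 stood there at 199 CPM in shSdc1 and 177 CPM in shRFP (ratio 1.13, 0.754 to 1.69), while its inducible sum was 3013 and 6583 CPM (0.458).

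Dendritic cell classes had unlike ratios. Conventional DC 1-like cells, the cross-presenting dendritic cells marked by Xcr1, had an inducible sum of 2888 CPM in shSdc1 and 7841 CPM in shRFP, a ratio of 0.368 (0.334 to 0.405). In them Hsph1 was at 0.249 (0.134 to 0.441), Dnajb1 at 0.303 (0.187 to 0.478) and Hsp90aa1 at 0.531 (0.422 to 0.667), and Bag3 had 1 UMI in shSdc1 and 17 in shRFP. Cells of this class with 3 or more inducible UMIs of 300 made up 10.7% in shSdc1 and 34.5% in shRFP. Conventional DC 2-like cells, marked by Cd209a, had 2396 and 3361 CPM, a ratio of 0.713 (0.642 to 0.791), which was close to their constitutive ratio of 0.774 (0.717 to 0.835). Migratory DC-like cells, marked by Ccr7 and Fscn1, had 1655 and 3174 CPM (0.521). The intervals of the DC 1-like and DC 2-like ratios did not meet, although this difference was not tested.

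The T-like clusters had unlike ratios, and the difference between them was not tested. Cluster 1, led by Tnfrsf4, Ctla4 and the regulatory T cell gene Foxp3, had 1555 CPM of inducible transcripts in shSdc1 and 3062 CPM in shRFP, a ratio of 0.508 (0.460 to 0.560). Cluster 4, led by Ifng, Cd8a and Gzmk, had 1791 and 2281 CPM (0.785, 0.701 to 0.881), and cluster 5, led by the naive T cell genes Lef1, Tcf7 and Dapl1, had 2081 and 2502 CPM (0.832, 0.710 to 0.974). The constitutive ratios of clusters 1, 4 and 5 were 0.939, 0.835 and 0.906. Relative to constitutive transcripts, cluster 1 had 33.9 inducible UMIs per 100 in shSdc1 and 62.7 in shRFP, whereas cluster 4 had 36.6 and 38.9. NK-like cells had 1416 and 2449 CPM (0.578, 0.460 to 0.731).

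RNA free in the droplets can add UMIs of these genes to any cell, and no leukocyte is known to lack Hspa1a. The barcodes with under 200 genes (276 in shSdc1 and 530 in shRFP) are therefore given for comparison. They may be small or damaged cells rather than empty droplets, so they cannot stand for free RNA. Ribosomal protein UMIs made up 13.3% of their UMIs in shSdc1 and 20.9% in shRFP, against 15.2% and 14.2% in kept cells. The inducible sum of the barcodes with under 200 genes was 4077 CPM in shSdc1 and 5786 CPM in shRFP, a ratio of 0.705 (0.612 to 0.809). Their constitutive sum was 3256 and 3715 CPM (0.876, 0.745 to 1.03). Both inducible levels were above those of the kept cells of the same library. The number of Hspa1a UMIs per Hspa1b UMI differed between classes, with 0.574 in shSdc1 and 0.798 in shRFP for T-like cells, 1.05 and 1.14 for monocyte/macrophage-like cells, and 0.551 and 0.867 for these small barcodes. Hspb1 was found in 0.272% of unthinned T-like cells in shSdc1 and 0.178% in shRFP, against 1.67% and 2.98% of monocyte/macrophage-like cells, at median depths of 450 and 402 UMIs in T-like cells and 671 and 722 UMIs in monocyte/macrophage-like cells. How much of any class's chaperone UMIs was free RNA was not tested.

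Other stress programs were compared to see which moved with the chaperones. Over all measured genes in all kept cells, 4.72% were lower by 1.5-fold and 12.5% higher, and these shares apply to each list below. Of 26 co-chaperones and other heat shock factor targets, 22 were measured, with 2 lower by 1.5-fold, 0 higher and a median log2 ratio of -0.13. One of the lower genes was Dnajb4, another HSP40 protein, with 19.2 CPM in shSdc1 and 32.6 CPM in shRFP (ratio 0.588). The chaperones Dnaja1 (0.771) and Hspa4 (1.05) and the HSP90 cochaperones Stip1 (1.14) and Ahsa1 (0.881) were within the mark. The list of heat shock factors had 3 measured genes and none past it. Hsf1 itself had 115 UMIs (26.9 CPM) in shSdc1 and 82 UMIs (19.9 CPM) in shRFP, a ratio of 1.35 (1.01 to 1.81).

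Few genes of the other chaperone lists were past the mark. Of 18 endoplasmic reticulum genes 17 had a ratio below 1 and 1 was lower by 1.5-fold, the HSP40 protein Dnajb9, with 55.4 CPM in shSdc1 and 116 CPM in shRFP (ratio 0.479), and the median log2 ratio was -0.28. Hspa5, the HSP70 of that compartment also called BiP, had 638 and 957 CPM, and its ratio of 0.667 (0.635 to 0.701) lay at the mark without passing it, and would pass it under either of the other scalings. None of the 8 chaperonin subunits (median log2 ratio -0.10, with Cct5 at 0.914, Cct2 at 0.905, Cct7 at 1.04 and Cct8 at 0.843) and none of the 7 mitochondrial chaperones (median 0.07, with Hspd1, the partner of Hspe1, at 0.903) was past it, although the other scalings would bring the mitochondrial median below 0.

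**Figure D5:**
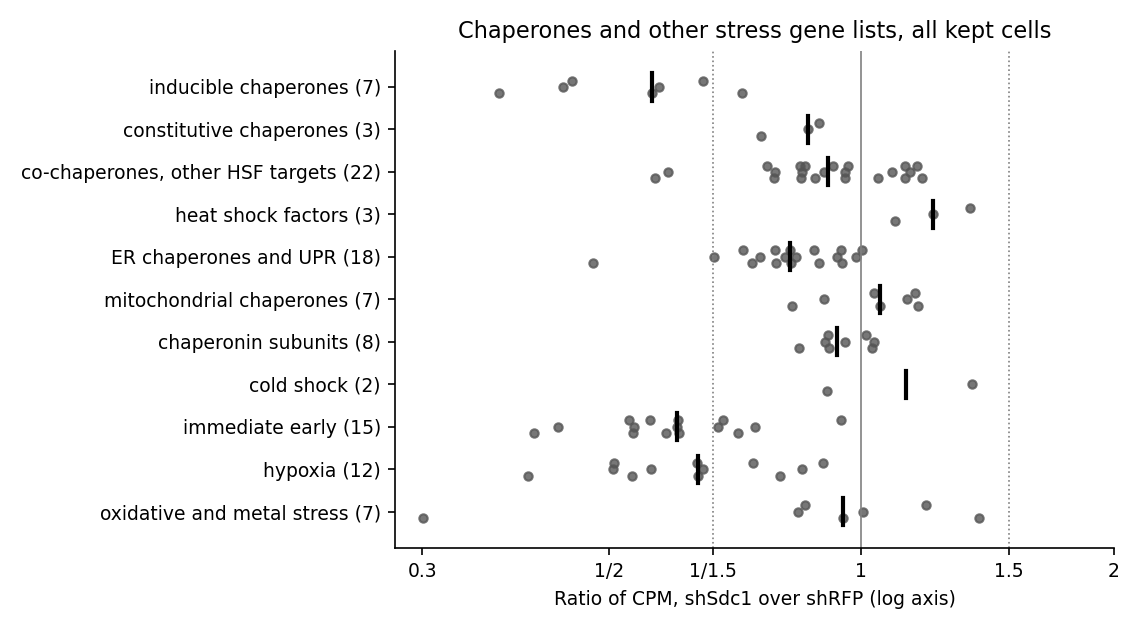
Ratio of CPM, shSdc1 over shRFP, on a log axis for each measured gene of the chaperone sets and of 9 further stress lists in all kept cells. Points are genes, black ticks are list medians, numbers in brackets are measured genes, and dotted lines mark 1/1.5 and 1.5. The inducible chaperones, immediate early and hypoxia lists had median log2 ratios of -0.83, -0.73 and -0.65, against 0.13 for all genes.

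Immediate early and hypoxia genes were lower in shSdc1 too. Of 15 immediate early genes, which respond within minutes to many stimuli including tissue digestion, 10 were lower by 1.5-fold and 0 higher. Their sum was 7227 CPM in shSdc1 and 11835 CPM in shRFP, a ratio of 0.611 (0.602 to 0.619), with Atf3 at 0.408, Ier3 at 0.435, Ier2 at 0.529, Nr4a1 at 0.535, Jun at 0.537, Zfp36 at 0.560, Socs3 at 0.585, Fos at 0.604, Egr1 at 0.604 and Dusp1 at 0.606. The sum did not follow the chaperones in every cluster. In cluster 9 it was 13413 and 14903 CPM (0.900, 0.836 to 0.968), in the Gdf15 and Fabp4 cluster 10934 and 11155 CPM (0.980, 0.946 to 1.02) and in the Il1a cluster 18043 and 16797 CPM (1.07, 1.04 to 1.11), while the inducible chaperones stood at 0.301, 0.497 and 0.749 there. Of 12 hypoxia genes 8 were lower by 1.5-fold, among them Egln3 (0.4003), Hilpda (0.506), Ero1l (0.508), Slc2a1 (0.532), Ankrd37 (0.561), Vegfa (0.638), Bnip3 (0.639) and Ndrg1 (0.647). Of 7 measured oxidative and metal stress genes 1 was lower, the cystine transporter Slc7a11 (0.301). Within classes, 5 of 12 hypoxia genes and 7 of 15 immediate early genes were lower by 1.5-fold in monocyte/macrophage-like cells (median log2 ratios -0.47 and -0.56), and 1 of 9 and 5 of 15 in T-like cells (-0.11 and -0.29). Of all measured genes, 7.25% were lower and 10.7% higher in monocyte/macrophage-like cells, and 3.68% and 7.80% in T-like cells. The oxidative and metal stress list had 1 gene lower and 2 higher of 7 in monocyte/macrophage-like cells (median 0.30).

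Cold shock genes and mitochondrial transcripts were compared as well. The cold shock genes Cirbp and Rbm3 had ratios of 1.35 (1.09 to 1.68) and 0.911 (0.869 to 0.955), and the mitochondrial share of UMIs was 1.89% in shSdc1 and 1.98% in shRFP. Among monocyte/macrophage-like cells the mitochondrial share was 2.09% and 1.97%, and in T-like cells it was 1.64% and 1.96%. The summed cold shock genes had a ratio of 0.929 (0.887 to 0.972) over all kept cells. It was 0.759 (0.705 to 0.817) in monocyte/macrophage-like cells and 0.958 (0.8775 to 1.046) in T-like cells. The part of digestion, of hypoxia and of immediate early activation in the chaperone difference was not tested.

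Over 30 points, each a cluster in 1 library with at least 50 cells, the summed inducible chaperones varied most like their own members Hspa1b (Pearson r = 0.97) and Hspa1a (r = 0.95), which are part of the sum, followed by Hspa8 (r = 0.79), which is not. Hsp90aa1 stood at r = 0.73, and the other inducible members followed the sum less closely although they are part of it. These were Hsph1 (r = 0.57), Bag3 (r = 0.43), Hspb1 (r = 0.42) and Dnajb1 (r = 0.35). The constitutive members Hspe1 (r = 0.30) and Hsp90ab1 (r = 0.07) were the lowest. Among 5466 other genes the closest included Jun (0.70), Tiparp (0.70), Ier5 (0.70), Jarid2 (0.69), Trib1 (0.68), Atg3 (0.67), Fos (0.66), Vapa (0.66) and Rhoa (0.64). Points of 1 library share its depth and handling, and clusters recur in both libraries, so these values are a description.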

How the data were processed

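The authors deposited raw UMI counts for each gene in each barcode, written by Cell Ranger 6.1.1 per the file headers. The genome build was mm10 per the submitters' processing notes, and the sources used here name no annotation release. Barcodes with at least 200 genes and under 10% mitochondrial UMIs were kept. Scrublet, run in scanpy 1.11.5, marked 0 and 1 barcodes as doublets (shSdc1 and shRFP), so its calls had not worked, and no doublets were removed in the main values. As an alternative, the barcodes with the highest Scrublet scores were removed at 0.8% per 1000 barcodes, which rests on the same scores. Counts scaled to 10000 UMIs per cell, 2000 variable genes without the chaperones and the co-chaperone, heat shock factor, cold shock, immediate early, hypoxia and oxidative stress lists, 30 principal components and 15 neighbours gave 17 Leiden clusters (leidenalg 0.10.2, resolution 1). Clusters were named for the marker list with the highest mean log2 fold over other cells (at least 0.5, with 3 markers at 2-fold or more), unless markers of another class led them, and those left over were scored again against the other named classes. This scoring, the chaperones and all gene and marker lists were chosen with earlier results of these data known.

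UMIs were summed per library and class and given as CPM with exact Poisson intervals. Ratios have exact conditional binomial intervals and shares exact Clopper-Pearson intervals, all at 95%. A gene counted as measured from 50 UMIs over both libraries, and the 1.5-fold mark is a rule of size. Cells were thinned to 300 UMIs for shares. Named besides the chaperones were list genes past 1.5-fold, otherwise up to 4 of most UMIs, and further list genes for their known role, chosen after their values were seen, and the 10 genes nearest in pattern by Pearson r on log2(CPM + 10) among genes with at least 200 UMIs, except 1 gene that is not reported here. Gene identifiers were matched to GENCODE M21 (31184 of 31253). Scripts used Python 3.11.15 and SciPy 1.17.1, and edgeR 4.0.16 for trimmed-mean factors, and were tested on simulated data.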

Additional observations from a re-analysis of the deposited data

How the results depend on the processing

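The inducible and constitutive sums over all cells, monocyte/macrophage-like cells and T-like cells stayed lower in shSdc1 under the 10 other settings tried for each and 1 added after seeing the data. Bag3 in T-like cells, with 27 and 13 UMIs, ranged from 0.863 to 1.80. Over all cells the inducible ratio of 0.486 became 0.534 with at least 500 genes per barcode, 0.440 and 0.443 with trimmed-mean and median-of-ratios scaling, 0.474 as the mean of each cell's share and 0.562 with the same weight per cluster in both libraries. The constitutive ratio of 0.809 became 0.844, 0.731, 0.736 and 0.781 under the first 4 of these. In monocyte/macrophage-like cells the inducible ratio of 0.482 became 0.551, 0.451, 0.444, 0.460 and 0.568 under the same 5, and 0.453 without the 1% of cells with most inducible UMIs. In T-like cells it ranged from 0.620 to 0.660. The number of members lower by 1.5-fold ranged from 5 to 7, because Bag3 left the count with under 5% mitochondrial UMIs (0.674), with the mean of each cell's share (0.667) and with equal cluster weights (0.772), and Hsp90aa1 entered it with both other scalings. Leaving out the 17 barcodes found in both libraries gave 0.487 over all cells, and removing the 249 and 218 barcodes with the highest Scrublet scores gave 0.481. No paired analysis was possible because each group has 1 library and its comparison has no test. Depth limits the low genes most: Hspb1, Bag3 and Hsph1 had at least 50 UMIs in 5, 3 and 7 of the 17 clusters, and 3 counts over all kept cells correspond to 0.701 CPM in shSdc1 and 0.729 CPM in shRFP.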

Other observations

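The smallest clusters are reported as values. Plasmacytoid DC-like cells, 33 in shSdc1 and 29 in shRFP, had 18 and 71 inducible UMIs (1014 and 3912 CPM) and 49 and 82 constitutive UMIs. Neutrophil-like cells, 25 in shSdc1 and 35 in shRFP, had 19 and 103 inducible UMIs (1504 and 4305 CPM), and their constitutive UMIs happened to be 19 and 103 as well. In these neutrophil-like cells the immediate early sum was higher in shSdc1, with 27228 CPM against 22445 CPM in shRFP (ratio 1.21, 1.06 to 1.39), while the inducible chaperone ratio was 0.349 (0.202 to 0.574). B or plasma-like cells had 100 and 218 inducible UMIs, a ratio of 0.389 (0.304 to 0.496).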
